A study of Homo sapiens with 24 samples.

Results

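Collagens are the main structural proteins of the extracellular matrix, and the array carried probes for 44 collagen genes, chosen by a gene name of COL, a type number, the letter A and a chain number. These genes had 64 of the 34127 probes that are not controls, and where a gene had several probes, which held for 15 genes, the one with the highest mean signal stood for it. The samples were A549 and H1975, established human lung adenocarcinoma cell lines, exposed to Pirfenidone at 0.75 mg/ml or to an equal volume of PBS, the solvent, and collected after 6 h or 24 h. The 8 groups of line, treatment and time held 3 samples each, every sample on its own one-color array, and the control for each drug group was PBS alone, so that both arms of a comparison shared line, time and solvent. Each line is a single line grown without other cells, and nothing in the labels says that the 3 samples of a group came from separate cultures, so p-values measure the spread between these samples, which may be technical.

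Collagen α chains wind around each other in a triple helix, and the combination of chains decides what is built. Fibrillar collagens such as types I, III and V pack into banded fibrils, type IV collagen forms the sheet-like network of basement membranes, and the remaining types decorate fibrils, anchor membranes, make short-chain networks or span the plasma membrane. In lung, type IV collagen underlies the alveolar and bronchial epithelium, whereas type I and III fibrils are mostly the work of fibroblasts and accumulate in fibrosis, the condition for which Pirfenidone is prescribed. By class, 11 of the 44 genes were fibrillar, 6 were basement membrane collagens of type IV, and 27 belonged to other types.

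Levels are given as the log2 of the background-subtracted spot intensity minus the 75th percentile of its array, so that a value of 0 is as bright as that percentile and a difference of 1 is a 2-fold change. Levels can be compared between arrays for 1 probe but not between probes. Between 62.7% and 69.5% of spots were well above background on an array, with 62.7% to 65.3% in A549 and 66.0% to 69.5% in H1975, and no spot was saturated. All 12 arrays of both lines had the epithelial genes EPCAM, KRT8, KRT18, KRT19 and CDH1 well above background. Of 8 mesenchymal markers, DCN was well above background on none of the 24 arrays, PDGFRB and FAP only on the 12 arrays of H1975, LUM only on the 12 of A549, PDGFRA on 3 A549 arrays, THY1 on 12 A549 and 3 H1975 arrays, and VIM and CDH2 on all 24. The part of these markers in the collagen values was not tested, and in RNA from whole cultures fewer expressing cells cannot be told apart from less RNA per cell.

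The arrays also fell into 4 runs, samples whose scanner files carry the same date in their names, with A549 in runs 1, 2 and 3 and H1975 in runs 1, 3 and 4, and each group had 1 array in each of its 3 runs. The last number in these names, taken as the place on the slide, was 1 for Pirfenidone and 2 for PBS at 6 h. At 24 h it was 3 for Pirfenidone and 4 for PBS, in both lines. Place thus cannot be told apart from drug or time. By the slide number in these names, each run of a line lay on a single slide, with 1 exception. The first PBS replicate of H1975 at 24 h lay on another slide than the rest of run 3. In A549 at 24 h the deviations of drug and PBS arrays from the means of their groups correlated at -0.10 in run 1, 0.39 in run 2 and 0.08 in run 3. Run 1 stood apart for the collagens. In H1975, 12 of the 34 tested collagens, or 35.3%, were lower on all 4 arrays of run 1 than on all 8 other arrays, against 7.97% of all tested probes. In A549 it was 8 of 34, or 23.5%, against 2.48%. COL12A1, a chain of the fibril-associated type XII collagen, averaged 0.60 in run 1 of H1975 and 2.77 in the other runs. COL1A2 averaged 0.58 and 1.99, and COL13A1 averaged -1.70 and -0.18. What set run 1 apart was not tested, and values within runs are given where they bear on a result.

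More collagens were detected in H1975. An A549 array showed 24 to 28 of the 44 collagens well above background, and an H1975 array showed 28 to 34, where the share of all spots was also higher in H1975. A total of 18 collagens passed this mark on all 24 arrays, 5 fibrillar, 4 of type IV and 9 others. COL1A2, COL13A1 and COL15A1 did so on all 12 H1975 arrays and on no A549 array, and COL21A1 on all 12 A549 arrays and on no H1975 array. COL3A1, the chain of type III collagen, was on neither line's arrays above that mark, and neither were COL11A1, COL6A5 and COL6A6. The tests covered 34 of the 44 genes, those that all 3 arrays of some group showed well above background, and left out COL2A1, COL3A1, COL11A1, COL4A3, COL19A1, COL22A1, COL6A3, COL6A5, COL6A6 and COL23A1.

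**Figure D1:**
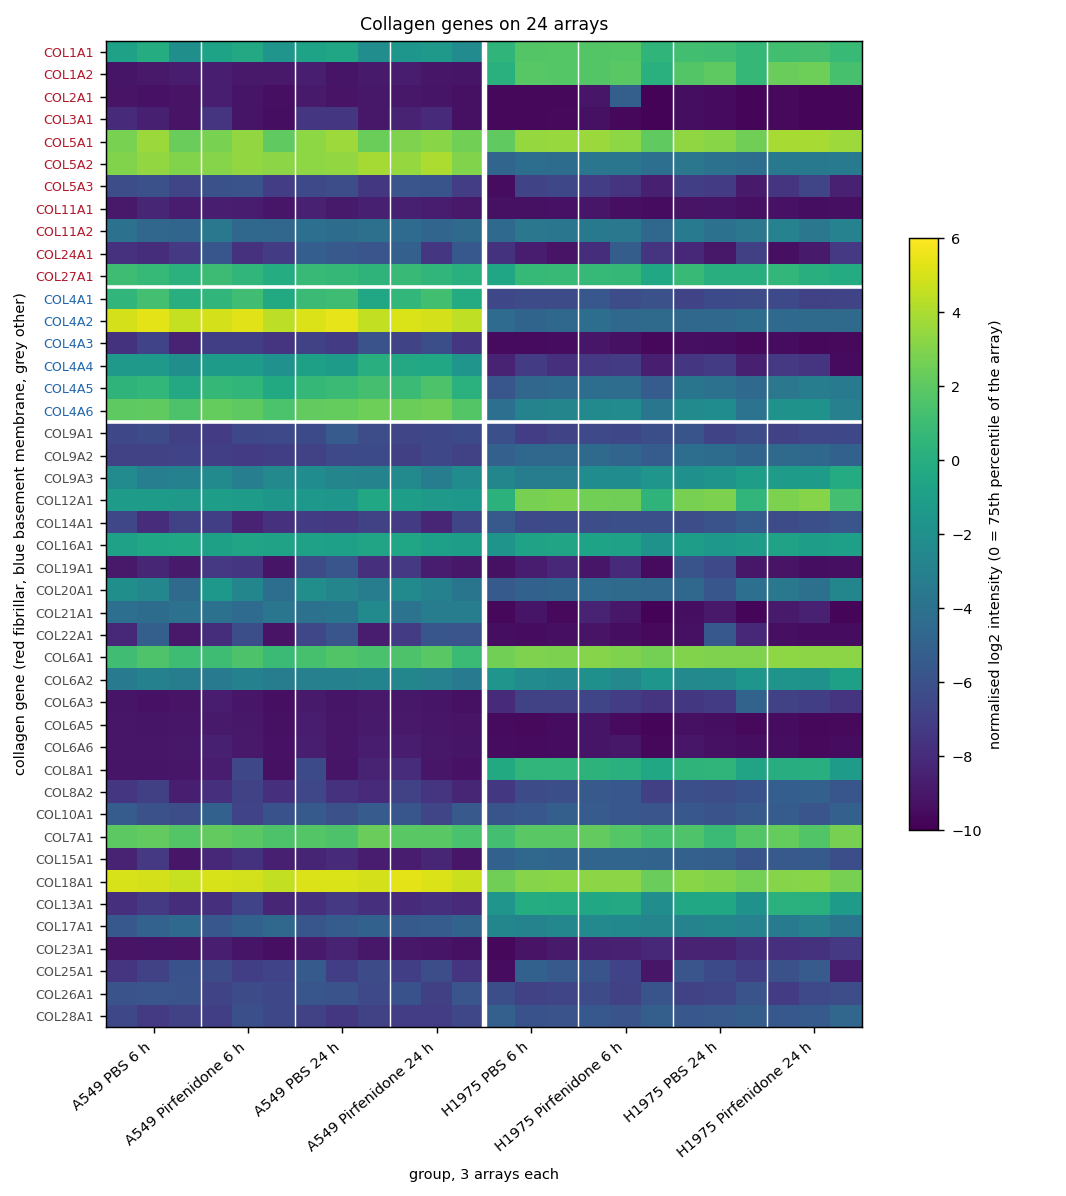
Normalized log2 intensity (color, 0 is the 75th percentile of an array) of the 44 collagen genes (rows, in classes) on the 24 arrays (columns, 3 per group); colors compare arrays within a row and not rows with each other. The 6 blue-labeled type IV rows are bright in A549 and dark in H1975, except COL4A3, which is dim in both, while COL1A2, COL8A1 and COL13A1 are bright in H1975 alone.

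The chains of type IV collagen are encoded in 3 head-to-head gene pairs, COL4A1 with COL4A2 on chromosome 13, COL4A3 with COL4A4 on chromosome 2, and COL4A5 with COL4A6 on chromosome X, each pair transcribed outward from a common stretch of DNA. In RefSeq's promoter windows (GRCh38.p14, 300 bases around a start, most of them upstream), the nearest starts of the pairs lay 127, 419 and 380 bases apart, and the windows of the partners shared 226, 82 and 121 bases. The window of the partner on the plus strand of each pair is printed here because all 3 pairs are part of the difference between the lines, with GC boxes (GGGCGG) and CCAAT boxes (CCAAT) of either strand in capitals. The COL4A2 window is chr13:110307034-110307333 on the plus strand, that of COL4A3 is chr2:227164374-227164673 on the plus strand, and that of COL4A5 is chrX:108439588-108439887 on the plus strand.
COL4A2: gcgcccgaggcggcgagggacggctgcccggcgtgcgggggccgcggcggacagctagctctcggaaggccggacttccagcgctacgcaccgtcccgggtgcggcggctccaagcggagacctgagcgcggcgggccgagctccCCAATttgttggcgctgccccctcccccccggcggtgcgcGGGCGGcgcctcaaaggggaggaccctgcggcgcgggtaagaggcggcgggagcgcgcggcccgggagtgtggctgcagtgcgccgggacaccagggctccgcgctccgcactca
COL4A3: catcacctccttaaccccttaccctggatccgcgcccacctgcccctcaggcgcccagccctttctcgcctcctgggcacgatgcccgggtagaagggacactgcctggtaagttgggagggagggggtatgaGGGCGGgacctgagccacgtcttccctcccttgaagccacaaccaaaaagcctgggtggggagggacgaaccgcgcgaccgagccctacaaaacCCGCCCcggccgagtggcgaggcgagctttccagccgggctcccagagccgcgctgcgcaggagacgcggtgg
COL4A5: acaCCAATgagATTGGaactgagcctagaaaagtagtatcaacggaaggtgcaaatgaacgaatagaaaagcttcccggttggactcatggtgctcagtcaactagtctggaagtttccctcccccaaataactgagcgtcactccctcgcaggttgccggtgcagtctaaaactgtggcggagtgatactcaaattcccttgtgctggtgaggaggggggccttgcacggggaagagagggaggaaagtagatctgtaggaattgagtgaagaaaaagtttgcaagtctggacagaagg

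The COL4A2 window, 77.7% G and C, held 1 GC box and 1 CCAAT box, that of COL4A3, 67.7% G and C, held 2 GC boxes and no CCAAT box, and that of COL4A5, 49.3% G and C, held 2 CCAAT boxes and no GC box. None of the 3 held TATAAA. Among all 35116 RefSeq windows of 300 bases, 45.0% held GGGCGG on either strand, 34.6% held CCAAT and 11.5% held TATAAA. A match of these letters is a description and not a binding site.

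Type IV collagen was the clearest difference between the lines. All 5 type IV chains that could be tested were lower in H1975 than in A549 at 6 h and again at 24 h. With PBS alone for 6 h, COL4A2 had values of 4.96, 5.35 and 4.62 in A549 and of -4.41, -4.86 and -4.60 in H1975. Its partner COL4A1 stood at 0.51, 1.20 and 0.02 in A549 and at -6.56, -6.27 and -6.37 in H1975. These 2 chains make up the most widespread type IV network, and no array of one line reached the values of the other. At 24 h the PBS values of COL4A2 were 5.16, 5.38 and 4.54 against -4.61, -4.61 and -4.33, and those of COL4A1 were 0.88, 1.04 and -0.50 against -6.71, -6.40 and -6.29. The difference, H1975 minus A549, was -9.60 ± 0.24 (log2, SE, n = 3 per group, limma adjusted p = 4.0e-17) for COL4A2 at 6 h and -6.97 ± 0.40 (adjusted p = 1.9e-11) for COL4A1, a 775-fold and a 126-fold lower level in H1975. At 24 h the differences were -9.54 and -6.94. Within the runs that hold both lines they were -9.02 in run 1 and -10.21 in run 3 for COL4A2 at 6 h, and -6.58 and -7.46 for COL4A1. With normexp, another background correction, H1975 was lower at 6 h by 528-fold for COL4A2 and by 45.3-fold for COL4A1.

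The second pair was uneven. COL4A4, a chain of the α3α4α5 network known from the glomerulus and the alveolus, had PBS values of -1.42, -1.37 and -2.05 in A549 at 6 h and of -8.39, -7.21 and -7.76 in H1975, where 1 of 3 arrays was well above background. The difference was -6.18 ± 0.55 (adjusted p = 1.3e-08), and -3.90 with normexp. At 24 h A549 gave -0.90, -1.14 and 0.03, and no H1975 array was well above background, so that the level was at least 93.9-fold higher in A549 (measured means -0.67 and -7.74, adjusted p = 1.9e-09), and 25.7-fold with normexp. COL4A3, which shares the promoter region of COL4A4, was well above background on 2 A549 arrays and on no H1975 array. Its level ran from -8.44 to -5.88 with a median of -7.02 over the 12 A549 arrays, and from -9.68 to -9.03 with a median of -9.49 over the 12 H1975 arrays. COL4A3 was thus not tested, though the values of the lines did not overlap. Its differences were -1.88 at 6 h and -2.77 at 24 h. Signals at the floor lay lower in H1975 too, as for COL6A5, detected on no array, with differences of -0.48 and -0.53. The third pair, the X-linked COL4A5 and COL4A6, was detected on every array of both lines. COL4A5 gave 0.42, 0.62 and -0.36 in A549 and -5.73, -4.75 and -4.56 in H1975 with PBS at 6 h, and COL4A6 gave 2.04, 2.07 and 1.52 against -4.17, -2.83 and -2.69. H1975 was lower by 37.7-fold for COL4A5 (log2 difference -5.24 ± 0.39, adjusted p = 7.9e-10) and by 34.4-fold for COL4A6 (-5.11 ± 0.49, adjusted p = 3.2e-08). At 24 h the differences of this pair were -5.06 and -5.12. A second COL4A6 probe gave smaller differences in the same direction, -1.68 at 6 h and -2.54 at 24 h, both called.

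**Figure D2:**
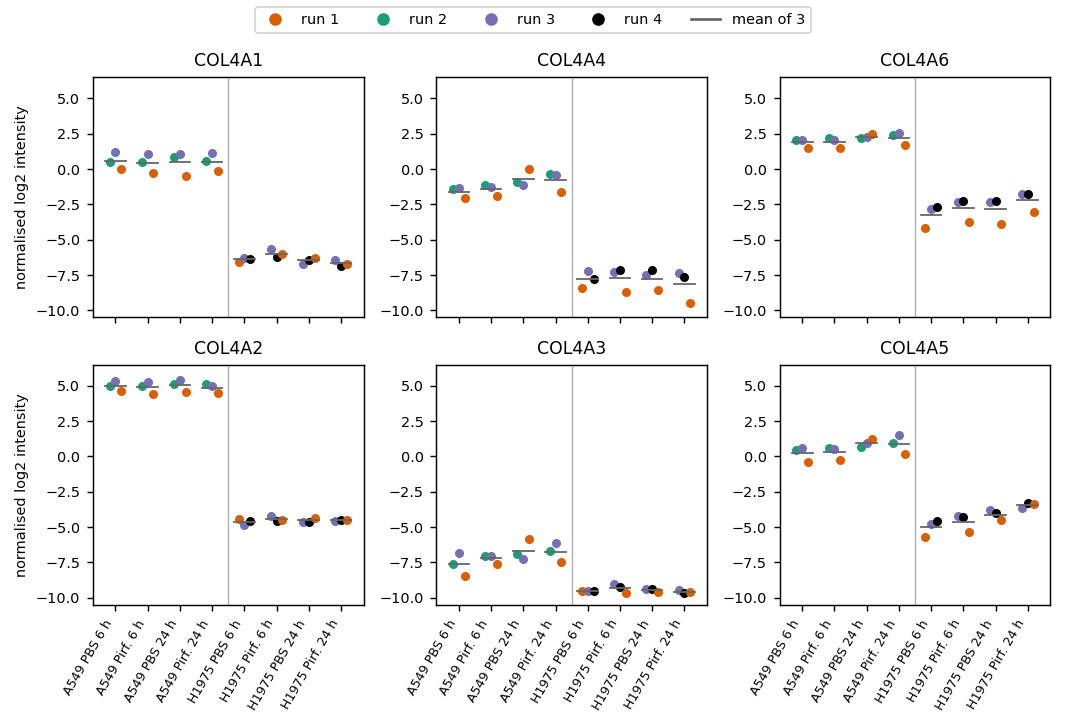
Normalized log2 intensity of the 6 type IV chains on each array (points, colored by run) by group, with the mean of 3 arrays as a line; head-to-head partners share a column. In all 6 panels the 12 A549 arrays lie above the 12 H1975 arrays, by the smallest margin for COL4A3, and run 1 is low in H1975 for COL4A4 and COL4A6.

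Over all collagens, a call needed an adjusted p (limma, Benjamini-Hochberg over the 23827 probes tested) no higher than 0.05 and a log2 difference of at least 1 in size. Between the lines at 6 h, 21 of the 34 tested collagens were called, where 32.4% of all tested probes were, 12 of them higher in H1975 and 9 higher in A549, beside 4071 and 3638 of all 23827 probes. At 24 h there were 22 calls (32.9% of all probes), 12 higher in H1975 and 10 higher in A549, beside 4284 and 3560 of all probes. A collagen bright in one line passed the filter through that line alone, so these counts are a description of the members tested and not of all 44. At both times 20 collagens were called in the same direction, 11 higher in H1975 and 9 in A549, and all 20 kept that direction within run 1 and within run 3 at both times. By class, the calls at 6 h were 2 higher and 1 lower in H1975 among 8 fibrillar genes tested, 0 higher and 5 lower among 5 of type IV, and 10 higher and 3 lower among 21 others. The median difference over all members of a class was -0.49 for the fibrillar, -5.71 for the type IV and 0.15 for the other genes, beside 0.06 over all tested probes.

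**Figure D3:**
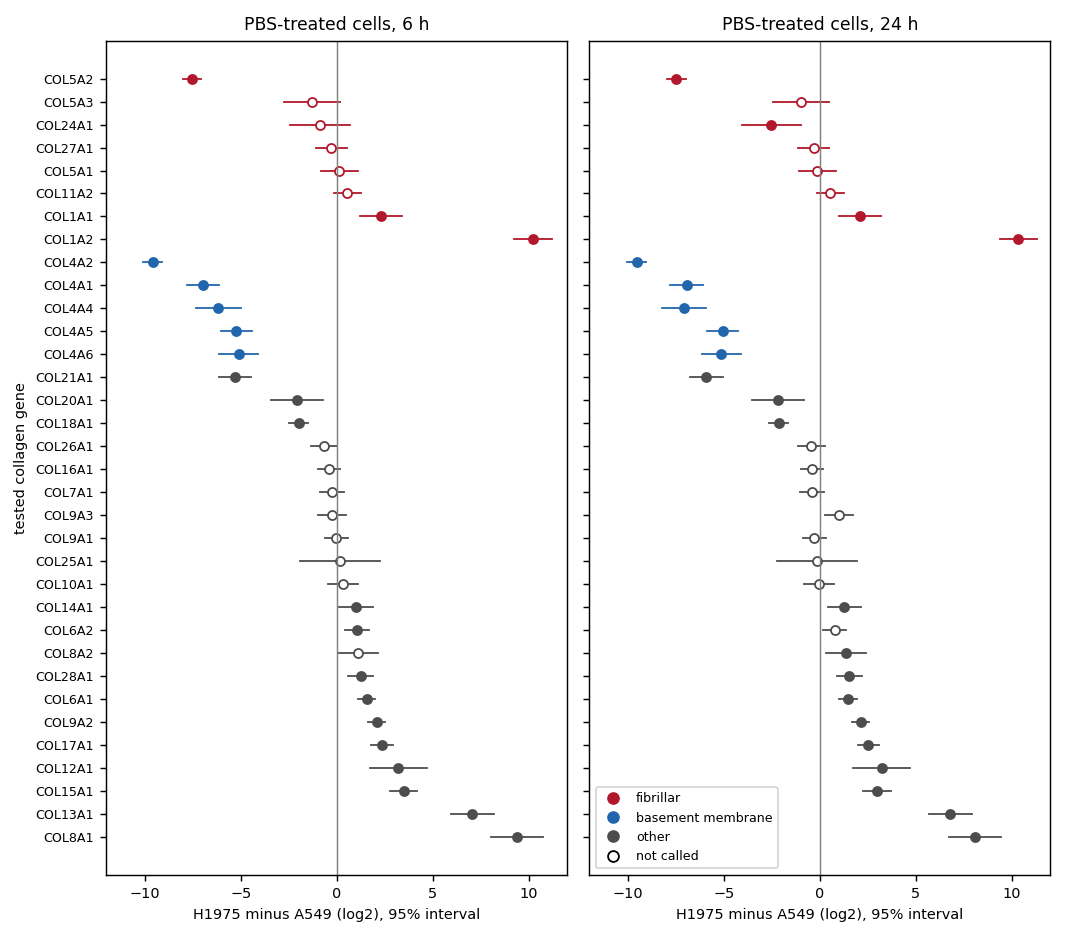
Difference between lines (H1975 minus A549, log2, PBS-treated cells) of the 34 tested collagens at 6 h and 24 h with 95% intervals from limma; filled points were called, open points were not, and colors mark the classes (red fibrillar, blue type IV, grey other). All 5 type IV points lie below -5, and COL1A2 and COL8A1 lie above 8.

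The chains of type I collagen, the major fibril former, differed in the other direction. COL1A2 encodes its α2 chain, and the array probe reads chr7:94058643-94058702 on the plus strand of hg19. COL8A1 encodes the α1 chain of the short-chain type VIII collagen of vessel walls and other subendothelial matrices, with a probe at chr3:99514765-99514824 on the plus strand. Both probe sequences are shown since the widest gaps in favor of H1975 rest on them.
COL1A2: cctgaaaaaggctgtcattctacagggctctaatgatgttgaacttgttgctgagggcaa
COL8A1: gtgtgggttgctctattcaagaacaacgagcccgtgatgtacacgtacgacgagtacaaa

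Neither stretch was well above background in A549 with PBS for 6 h. COL1A2 had values of -9.11, -8.91 and -8.81 in A549 and of 0.16, 1.84 and 1.78 in H1975 at that time. At 24 h the values were -8.67, -9.08 and -8.85 against 1.71, 2.04 and 0.63. In both lines the 12 arrays held their side of the gap, from -9.11 to -8.67 in A549 and from 0.16 to 2.50 in H1975. Since no A549 array was well above background, the level in H1975 was at least 281-fold higher at 6 h (measured means 1.26 and -8.94, adjusted p = 4.7e-13) and at least 292-fold higher at 24 h (1.46 and -8.86, adjusted p = 3.9e-13). A lower bound of this kind sets the bright group's mean against the dimmest signal that still counted as well above background on the dim arrays. It holds for the processed signals of the scanner software. The adjusted p beside a bound belongs to the difference of the measured means and does not test the bound. Where a gene passed the filter only through its bright line, as COL1A2 did, this p is no separate support. Normexp correction adds an offset that draws dim signals together, and with it COL1A2 was 96.5-fold higher at 6 h and 104-fold higher at 24 h. It called 16 collagens at each time, a count with no share of all probes called at hand beside it. Normexp values are given where they lie below a bound or end a call, and for several wide gaps. Differences that rest on a dim signal were mostly smaller with normexp.

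COL1A1, the α1 chain that pairs with COL1A2 in type I collagen, was well above background on all 24 arrays. With PBS at 6 h it had -0.82, -0.10 and -2.06 in A549 and 0.47, 1.69 and 1.79 in H1975, and at 24 h -0.69, -0.62 and -2.14 against 1.13, 1.07 and 0.64. The lowest value of each line at both times came from run 1, yet the lines did not overlap at either time. H1975 was higher by 2.31 ± 0.52 at 6 h (4.95-fold, adjusted p = 8.0e-04) and by 2.09 ± 0.52 at 24 h (4.27-fold, adjusted p = 0.0018). The A549 line thus gave signal for the COL1A1 chain with none above background for COL1A2, on probes whose levels cannot be set against each other. COL3A1, which often shares fibrils with type I collagen, ranged from -9.40 to -7.45 in A549 and from -9.84 to -9.28 in H1975, none of it well above background.

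COL5A2, the α2 chain of type V collagen, which sits inside type I fibrils, ran against type I. With PBS at 6 h its values were 2.95, 3.40 and 2.97 in A549 and -4.77, -4.20 and -4.35 in H1975, and at 24 h 3.28, 3.42 and 3.84 against -3.63, -4.03 and -4.22. The difference was -7.55 ± 0.23 at 6 h (187-fold lower in H1975, adjusted p = 9.9e-16) and -7.48 ± 0.23 at 24 h (178-fold, adjusted p = 1.2e-15). COL5A2 lies next to COL3A1 on chromosome 2, with no protein-coding gene between them in RefSeq's table, and the neighbor was above background in neither line. COL5A1, its partner chain, was not called by its brightest probe, with differences of 0.12 (95% interval -0.85 to 1.08) at 6 h and -0.13 at 24 h, but its other 2 probes were called higher in H1975 at both times, by 1.98 and 1.87 at 6 h and by 1.53 and 2.27 at 24 h, so no single direction can be given for this gene. Of the remaining fibrillar genes, COL24A1 was called at 24 h only, lower in H1975 by 2.52 ± 0.74 (adjusted p = 0.0067), with 1 of 3 H1975 arrays well above background, and it was not called with normexp (-0.97, adjusted p = 0.140). COL5A3, COL11A2 and COL27A1 were not called at either time, with differences between -1.28 and 0.54. With the run as a block shared by both lines, COL5A3 was called lower in H1975 at 6 h (-1.47, adjusted p = 0.0014) and 24 h (-1.17, adjusted p = 0.0070).

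Short-chain and transmembrane collagens held the other wide gaps. COL8A1 had PBS values of -9.12, -9.12 and -9.06 in A549 at 6 h and of -0.26, 0.53 and 0.54 in H1975, at least 141-fold higher in H1975 (measured means 0.27 and -9.10, adjusted p = 3.1e-10). At 24 h A549 gave -6.43, -9.09 and -8.43, with 1 array well above background, and H1975 gave 0.43, 0.46 and -0.63, a difference of 8.07 ± 0.65 (adjusted p = 2.9e-09). COL13A1, a transmembrane collagen of cell junctions, had -7.80, -7.30 and -7.93 in A549 and -1.63, -0.10 and -0.18 in H1975 at 6 h, at least 75.3-fold higher in H1975 (means -0.64 and -7.68, adjusted p = 1.3e-09), and at least 57.7-fold higher at 24 h (means -0.88 and -7.66, adjusted p = 2.3e-09). With normexp COL8A1 was 58.7-fold higher at 6 h and 34.0-fold higher at 24 h, and COL13A1 was 21.7-fold and 17.7-fold higher at 6 h and 24 h. For both genes the lines were far apart on every array. COL21A1, of the fibril-associated type XXI collagen, was the reverse, with -4.15, -4.36 and -3.95 in A549 and -9.63, -9.12 and -9.61 in H1975 at 6 h. It was at least 9.54-fold higher in A549 at 6 h (means -4.15 and -9.46, adjusted p = 1.3e-09) and at least 14.4-fold higher at 24 h (means -3.42 and -9.33, adjusted p = 2.6e-10), which normexp put at 4.16-fold and 5.99-fold.

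The rest of the called collagens differed less, and their names were taken after their values were seen. COL12A1, which links fibrils to other matrix, was higher in H1975 by 3.18 ± 0.71 at 6 h (9.06-fold, adjusted p = 7.4e-04), but by 1.64 within run 1 and by 3.87 within run 3. COL18A1, the basement membrane proteoglycan whose end fragment is endostatin, was lower in H1975 by 3.96-fold at 6 h (-1.99 ± 0.24, adjusted p = 6.8e-07) and by 4.42-fold at 24 h. It followed the type IV chains in direction, while its relative COL15A1 did not, at least 4.21-fold higher in H1975 at 6 h (means -4.80 and -8.26, adjusted p = 6.6e-08). Normexp ended the COL15A1 calls, with differences of 0.96 at 6 h (adjusted p = 0.0595) and 0.62 at 24 h (adjusted p = 0.233). COL17A1, the hemidesmosome collagen of epithelia, was higher in H1975 by 2.35 ± 0.26 at 6 h (5.10-fold, adjusted p = 3.0e-07). COL6A1, of the beaded filaments of type VI collagen, was higher in H1975 by 1.55 ± 0.21 (2.93-fold, adjusted p = 4.3e-06), and its chromosomal neighbor COL6A2 was called at 6 h only, by 1.03 ± 0.29 (adjusted p = 0.0050), with a second probe at 0.34 that was not called. Normexp ended the COL6A2 call at 6 h, with a difference of 0.86 (limma adjusted p = 0.023) under the 2-fold limit. COL9A2, COL14A1 and COL28A1 were called higher in H1975 at both times, with differences of 1.01 to 2.12, and COL20A1 was called lower, by -2.09 at 6 h and -2.16 at 24 h. No A549 array had COL14A1, COL28A1 or COL8A2 well above background with PBS at 24 h, so that by the processed signals H1975 was at least 1.87-fold (means -5.83 and -7.10, adjusted p = 0.013), 2.35-fold (means -5.49 and -7.03, adjusted p = 2.3e-04) and 1.55-fold (means -6.09 and -7.45, adjusted p = 0.025) higher. With normexp these 3 differences at 24 h were 0.14, 0.33 and 0.22 and none was called, nor were COL14A1 (0.01), COL28A1 (0.24) and COL9A2 (0.75) at 6 h or COL9A2 (0.90) at 24 h. COL8A2 missed the call at 6 h by its brightest probe (1.10), but was called there with the run as a block within each line (adjusted p = 0.014), with the replicate block (adjusted p = 0.041) and by the mean of its probes (1.28). Its second probe was called at both times (1.46 and 1.68). COL14A1 was called at 6 h at an adjusted p of 0.046, which ran from 0.025 to 0.261 as each array in turn was left out, and 12 of the 24 arrays ended the call when absent. COL8A2 at 24 h lost its call without any of 4 arrays, at adjusted p of up to 0.112, and COL6A2 at 6 h without either of 2, where the difference fell to as little as 0.77. COL20A1 at 6 h missed the threshold without the first PBS replicate of A549 (adjusted p = 0.059), COL28A1 at 6 h fell below the 2-fold limit without the first PBS replicate of H1975 (0.94), and COL14A1 at 24 h was not called without the third PBS replicate of H1975 (adjusted p = 0.066).

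The genes that make, fold, cut and cross-link collagen gave a further view of the lines. Of 50 such genes on the array, 43 were tested, and at 6 h 13 were called higher and 4 lower in H1975, and at 24 h 11 and 6, that is 17 of 43 at each time where 32.4% and 32.9% of all tested probes were called, with median differences of 0.44 and 0.27 beside 0.06 and 0.08 over all tested probes. LOX, lysyl oxidase, which starts the cross-linking of fibrillar collagen, had PBS values of -8.35, -8.90 and -8.60 in A549 at 24 h and of 1.70, 1.73 and 0.61 in H1975. No A549 array was well above background with PBS, and the level was at least 391-fold higher in H1975 at 6 h (means 1.74 and -8.62, adjusted p = 3.2e-13) and at least 269-fold higher at 24 h (means 1.34 and -8.62, adjusted p = 6.0e-13), and 127-fold and 88.4-fold higher with normexp. The related oxidase LOXL1 was higher in H1975 by 3.22 ± 0.32 at 6 h (9.29-fold) and by 3.52 at 24 h. ADAMTS2, which removes the amino propeptide of procollagen, was at least 2.25-fold higher in H1975 at 6 h (means -5.70 and -8.95, adjusted p = 2.1e-05), but was not called with normexp (0.50, adjusted p = 0.429). NID1, nidogen, which ties type IV collagen to laminin, went with the type IV chains. Its PBS values at 6 h were -1.60, -0.90 and -1.48 in A549 and -9.50, -6.97 and -7.35 in H1975, a difference of -6.61 ± 0.72, or -4.09 with normexp. At 24 h NID1 was at least 76.0-fold higher in A549 (means -1.02 and -8.14, adjusted p = 7.7e-08), and 20.7-fold with normexp. NID2 and HSPG2, nidogen-2 and the basement membrane proteoglycan perlecan, were lower in H1975 as well, by 8.44-fold and 2.76-fold at 6 h, as was the prolyl hydroxylase subunit P4HA3, by 5.68-fold at 6 h and 10.5-fold at 24 h. SERPINH1, the collagen chaperone HSP47, was higher in H1975 by 1.42 ± 0.33 at 6 h and by 1.71 at 24 h, and CREB3L1, a membrane-bound transcription factor known to activate COL1A1 in bone, by 2.65 ± 0.15 and 2.88. NID2, HSPG2, SERPINH1 and CREB3L1 were named after their values were seen.

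**Figure D4:**
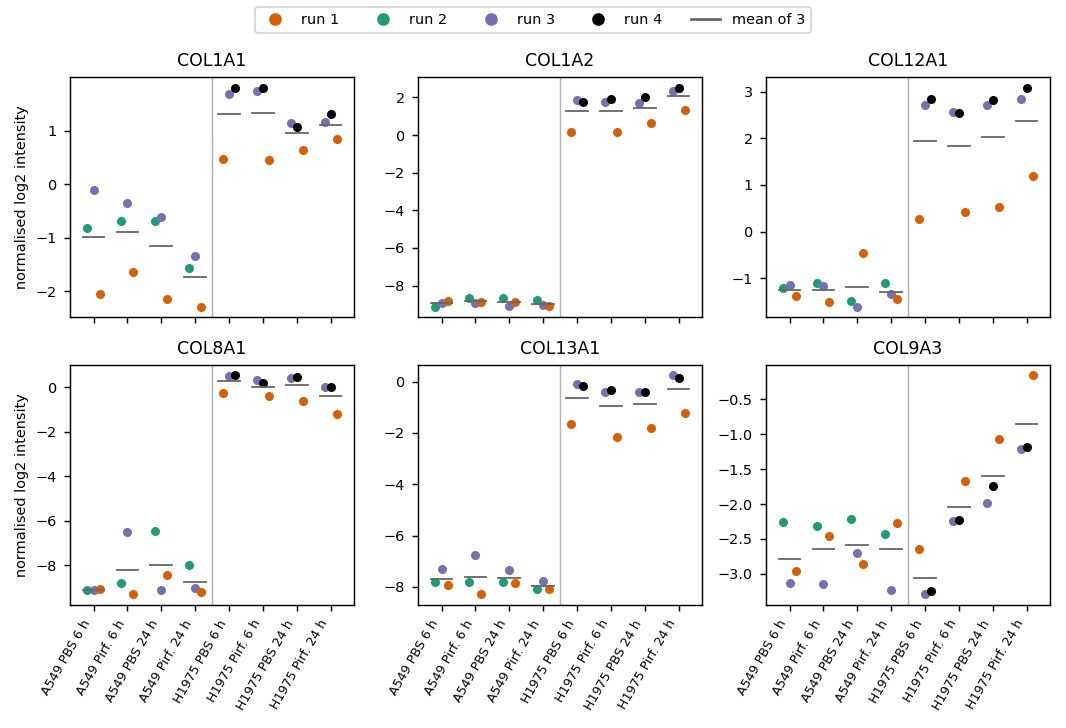
Normalized log2 intensity of 6 collagens on each array (points, colored by run) by group, with the mean of 3 arrays as a line; each panel has its own scale. COL1A1, COL1A2, COL12A1, COL8A1 and COL13A1 lie higher in H1975, with the run 1 arrays lowest there, and the COL9A3 means in H1975 run from -3.06 with PBS at 6 h to -0.85 with Pirfenidone at 24 h.

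With Pirfenidone, an antifibrotic drug, no collagen was called by its brightest probe in either line at either time. In A549 at 6 h 0 of 34 tested collagens were called, where 0.176% of all tested probes were, and at 24 h 0 of 34, where 0.0126% were. H1975 gave 0 of 34 against 0.491% at 6 h and 0 of 34 against 1.89% at 24 h. At an unadjusted p under 0.05 in limma, 0 and 0 collagens passed in A549 (6 h, 24 h) and 3 and 5 in H1975. By that measure 6.01% and 0.953% of all tested probes passed in A549 and 11% and 22% in H1975. The methods' paired t-test called 0 in each after adjustment. With such low shares, 0 of 34 is no result about the collagens. Nor does a missing call show that levels were equal. The 95% interval of the drug change lay within a 2-fold change for 19 of 34 collagens at 6 h and 16 at 24 h in A549, and for 17 and 10 in H1975. The arms of PBS and drug did not overlap for 2 and 2 of the 34 in A549 (15.3% and 1.82% of all tested probes) and for 4 and 8 in H1975 (17.8% and 31.9%).

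A second probe of COL28A1, a collagen chain with von Willebrand factor A domains, was called in H1975 at 24 h. It had -7.06, -7.16 and -7.19 with PBS, where 1 of 3 arrays was well above background, and -5.49, -5.93 and -5.54 with Pirfenidone, where all 3 were. The change was 1.49 ± 0.43 (limma adjusted p = 0.048). The adjusted p ran from 0.0078 to 0.175 as each array in turn was left out, and most of these fits ended the call. It was 0.022 with the run as a block within each line. The authors' values (adjusted p = 0.055) and the fit without a filter on dim probes (adjusted p = 0.068) gave no call. The replicate block gave an adjusted p of 0.057 and normexp a change of 0.46 (adjusted p = 0.923), both without a call. The probe with the highest mean signal of COL28A1 changed by 0.22 there and was not called, so no single response can be given for this gene.

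Type I collagen is the usual target of antifibrotic treatment, and its chains are given in full. In A549 at 24 h COL1A1 had -1.57, -1.34 and -2.29 with Pirfenidone and -0.69, -0.62 and -2.14 with PBS. The arms overlapped, and the change was -0.58 ± 0.52 (95% interval -1.67 to 0.50, adjusted p = 1.0), with -0.15 within run 1, -0.88 within run 2 and -0.72 within run 3. With the run as a block this change was -0.58 ± 0.21 (unadjusted p = 0.013 in limma). It lay under the 2-fold limit and did not pass after adjustment. At 6 h in A549 COL1A1 had -0.70, -0.35 and -1.65 with Pirfenidone, a change of 0.09 (95% interval -0.99 to 1.18). In H1975 it had 1.74, 1.79 and 0.46 with the drug at 6 h and 1.15, 1.31 and 0.84 at 24 h, changes of 0.01 (-1.07 to 1.10) and 0.16 (-0.93 to 1.24). All of these arms overlapped. COL1A2 in H1975 had 1.74, 1.94 and 0.19 with the drug at 6 h and 2.35, 2.50 and 1.35 at 24 h, changes of 0.03 (95% interval -0.94 to 0.99) and 0.60 (-0.36 to 1.57). With the run as a block, the 24 h change of COL1A2 was 0.60 ± 0.14 at an adjusted p of 0.010, under the 2-fold limit. In that comparison with the block COL5A1 (0.82), COL4A6 (0.62), COL6A2 (0.67), COL13A1 (0.59), COL9A3 (0.75) and COL17A1 (-0.58) also had adjusted p of 0.0086 to 0.020 under that limit. No share of all tested probes by that measure is at hand, so these genes are no result about the collagens. Without the block, 22% of all tested probes had an unadjusted p under 0.05 in limma in that comparison.

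The leading basement membrane chains were not called either. COL4A2 had 4.95, 5.27 and 4.43 with Pirfenidone in A549 at 6 h and 5.12, 5.00 and 4.49 at 24 h, changes of -0.09 (95% interval -0.59 to 0.41) and -0.15 (-0.65 to 0.35). COL4A1 had 0.53, 1.10 and -0.31 and then 0.60, 1.13 and -0.15, changes of -0.13 (-0.97 to 0.71) and 0.05 (-0.79 to 0.89). Drug and PBS arrays overlapped in each case. In H1975 the changes were 0.19 and 0.02 for COL4A2 and 0.42 and -0.21 for COL4A1 at 6 h and 24 h, each with an interval that held 0.

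In H1975 at 24 h the median drug change over all 44 collagens was 0.03, beside 0.02 over all tested probes, and 22 of the 34 tested were positive. Of the 18 collagens detected on all 24 arrays, 15 had a positive drug change, with a median of 0.40 beside 0.02 over all probes detected on all arrays, and within runs 1, 3 and 4 the medians were 0.70, 0.29 and 0.37. In A549 at 24 h 2 of the 18 were positive with a median of -0.08 beside -0.02, but the medians within runs 1, 2 and 3 were -0.40, 0.17 and 0.04. Run 1, which holds the third A549 replicates, was the run with a negative median. At 6 h the medians were -0.04 in A549 and 0.12 in H1975, beside -0.02 and 0.04. By class in H1975 at 24 h the medians of these detected members were 0.46 for 5 fibrillar, 0.32 for 4 type IV and 0.35 for 9 other genes, and those over all members of a class were 0.11, -0.05 and 0.03. Normexp background correction moved the class medians in H1975 at 6 h, where it shifted the median of all tested probes to 0.29 from 0.05.

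**Figure D5:**
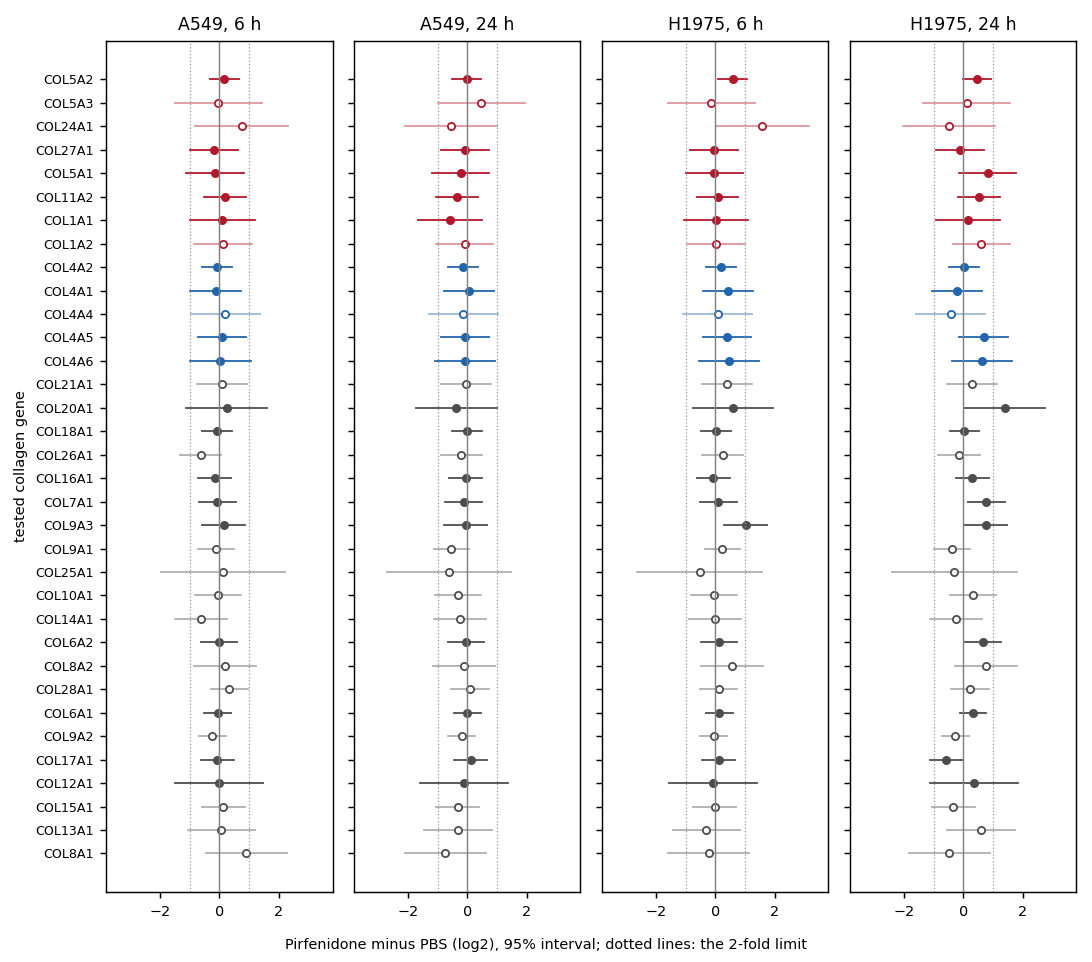
Change with Pirfenidone (drug minus PBS, log2) of the 34 tested collagens in 4 comparisons with 95% intervals from limma; filled points are the 18 genes detected on all 24 arrays, open points the others, colors mark the classes (red fibrillar, blue type IV, grey other), and dotted lines mark a 2-fold change. No brightest probe was called, and most filled points in H1975 at 24 h lie to the right of 0.

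COL9A3, a chain of the fibril-associated type IX collagen of cartilage, was called for the drug in H1975 at 6 h once the run was a block. It had -2.65, -3.29 and -3.25 with PBS at 6 h and -2.24, -2.23 and -1.66 with Pirfenidone, with no overlap. At 24 h it had -1.99, -1.74 and -1.07 with PBS and -1.20, -1.19 and -0.16 with Pirfenidone, where the arms overlapped. The change was 1.02 ± 0.35 at 6 h (unadjusted p = 0.0085 in limma, adjusted p = 0.206) and 0.75 ± 0.35 at 24 h (adjusted p = 0.210), and it was positive within each run, 0.99, 1.05 and 1.02 at 6 h and 0.91, 0.78 and 0.55 at 24 h in runs 1, 3 and 4. With the run as a block, which each group fills evenly, the change at 6 h was called (1.02 ± 0.17, adjusted p = 0.0027), 1 of 34 collagens where 0.949% of all tested probes were. In A549 the changes were 0.15 and -0.05, with 0 of 34 collagens called with the block at 6 h (0.323% of all probes) and at 24 h (0.0378%). The difference between lines in the drug change of COL9A3 was 0.87 at 6 h with an adjusted p of 0.175 with the block, and 0.80 at 24 h with an adjusted p of 0.065, so the lines were not shown to differ.

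COL20A1, of the fibril-associated type XX collagen, changed by 1.39 ± 0.64 in H1975 at 24 h (adjusted p = 0.212), with -3.60, -4.08 and -2.65 with Pirfenidone and -4.63, -5.74 and -4.14 with PBS. The drug arrays lay above the PBS arrays, and the change was 1.48, 1.03 and 1.66 within runs 1, 3 and 4. With the run as a block it was called (1.39 ± 0.39, adjusted p = 0.022), the 1 call among 34 collagens where 2.95% of all tested probes were. The slide as a random block called it too (1.43, adjusted p = 0.040), but slide and run nearly coincide within a line, so this is no separate support. The run as a block shared by both lines did not call it, and a second COL20A1 probe, well above background on all 24 arrays, changed by 0.53 without a call. The difference between lines at 24 h was 1.76 with the block (adjusted p = 0.075). COL7A1, the anchoring fibril collagen, had 0.78 (95% interval 0.16 to 1.40, adjusted p = 0.126) and COL17A1 had -0.58 (-1.13 to -0.02, adjusted p = 0.207) in H1975 at 24 h, COL6A2 had 0.67 (adjusted p = 0.183), and at 6 h COL5A2 had 0.58 (adjusted p = 0.323) and COL24A1, detected on 1 of its 6 arrays, 1.58 (adjusted p = 0.439). None of these 5 reached the 2-fold limit and an adjusted p of 0.05 together, with or without the block.

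No line difference of a drug change was called among the collagens, 0 of 34 at 6 h (0.0336% of all tested probes) and 0 of 34 at 24 h (0.193%), with 0 and 1 at an unadjusted p under 0.05 in limma (2.63% and 12.2% of all tested probes). The drug change also did not differ between times for any collagen by this rule, with 0 of 34 in A549 (0.0294%) and 0 of 34 in H1975 (0.0042%), and 0 and 0 at an unadjusted p under 0.05 (3.04% and 5.86%). From 6 h to 24 h in PBS alone, 0 of 34 collagens were called in A549 (0.109%) and 0 of 34 in H1975 (0.315%), with 2 and 2 at an unadjusted p under 0.05 (8.49% and 10.6%). The largest change with time in H1975 was again that of COL9A3, at 1.46 ± 0.35 (adjusted p = 0.063), which was called with the run as a block (1.46 ± 0.17, adjusted p = 2.7e-04), 1 of 34 where 1.18% of all probes were. COL4A5 had 0.90 ± 0.39 in H1975 (adjusted p = 0.392) and 0.72 in A549.

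The collagen processing genes gave 0 of 43 calls for the drug in each of the 4 comparisons in limma. Of all tested probes, 0.176% and 0.0126% were called in A549 and 0.491% and 1.89% in H1975 at 6 h and 24 h. With such low shares, 0 of 43 is no result about these genes. At an unadjusted p under 0.05 there were 3 and 0 in A549 and 1 and 9 in H1975 at 6 h and 24 h, beside 6.01%, 0.953%, 11% and 22% of all tested probes. Among the 9, the 3 prolyl 4-hydroxylase α subunits P4HA1, P4HA2 and P4HA3, which make the hydroxyproline that stabilizes the triple helix, had changes of 0.64, 0.65 and 1.21 at 24 h (adjusted p = 0.053, 0.149 and 0.113). P3H4, a partner of the lysyl and prolyl hydroxylases, had 0.57 at an adjusted p of 0.027, under the 2-fold limit. With the run as a block, P4HA3 was called higher (adjusted p = 0.018) and NID2 lower (-1.23, adjusted p = 0.0034) in H1975 at 24 h, 2 of 43 where 2.95% of all probes were. LOX and SERPINH1 were not among the genes at an unadjusted p under 0.05 in any of the drug comparisons without the block. With the run as a block, LOX had 0.84 (adjusted p = 0.0091) in H1975 at 24 h, under the 2-fold limit. SERPINH1 had 0.04 (adjusted p = 0.825) there. Other listed genes under that limit also had an adjusted p under 0.05 there, such as TGM2 (0.47) and LOXL4 (-0.52). These genes were named after their values were seen.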

How the data were processed

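RNA of 24 samples was labeled with a single dye and hybridized to Agilent one-color arrays. The deposited scanner files, which the authors obtained with Agilent's Feature Extraction, hold a background-subtracted intensity per spot with flags for outliers and for spots well above background, and a separate table deposited by the authors holds log2 values centered on each probe's median, whose scaling per array none of the sources used here states. Here the 75th percentile of each array's log2 processed signals was subtracted, spots marked as outliers were dropped and the spots of a probe were averaged. A probe was taken as well above background where a share of 0.5 or more of its spots carried that flag. The authors' values correlated with these at r = 0.999 over probes and arrays after centering, with column medians of -0.162 to 0.155.

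Tests used limma 3.58.1 in R 4.3.3 (lmFit, eBayes) fitted to all 8 groups together (16 residual degrees of freedom), on the 23827 of 34127 probes that every array of some group showed well above background, with Benjamini-Hochberg adjustment over all of them. The steps were tested on simulated data. Members, classes and lists were chosen with earlier results of these data known. Values are given per array, or as ranges for COL3A1, for COL1A1, COL1A2, COL3A1, COL4A1, COL4A2, for up to 3 genes per class with the largest line difference called at both times, and for any collagen called for drug or time. Of the 50 processing genes, those with the 3 largest line differences were named by rule. Their values are given per array only for LOX at 24 h and NID1 at 6 h. The list held hydroxylases, glycosyltransferases, chaperones, propeptide proteases, cross-linking enzymes, matrix partners and receptors. Marker lists covered epithelial, mesenchymal, endothelial and leukocyte genes and A549 features. Of these, PECAM1 and VWF were well above background on all 12 H1975 and no A549 arrays, CDH5 and CD14 on all 24, PTPRC on 12 A549 and 11 H1975 arrays, CD3E on 1 H1975 array, AKR1B10 and CDKN2A on all 24, and ALDH1A1 on 12 A549 and 6 H1975 arrays. CDKN2A, known to be deleted in A549, had a median level of -1.76 in A549 and 2.64 in H1975.

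RefSeq accessions of 43 of the 44 collagens matched the gene table of GRCh38.p14, with symbols as on the array, and 32 genes had a promoter window. Probe positions are those of the array files on hg19, without exon annotation. Alternatives were normexp correction (offset 50), normalization by quantiles, the authors' values, other filters, blocks for replicate number, slide and run, genes in place of probes, Holm adjustment, no fold limit, the methods' paired t-test and each array left out. Replicate numbers were not taken as pairs. Deviations of drug and PBS samples with the same number correlated at -0.48, 0.43 and -0.68 in H1975 at 6 h, where samples of a run correlated at 0.50 to 0.82, and at 0.39, 0.08 and -0.10 in A549 at 24 h. They correlated at 0.58 to 0.70 in A549 at 6 h and at 0.46 to 0.72 in H1975 at 24 h. In A549 and in H1975 at 24 h number and run coincide.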

Additional observations from a re-analysis of the deposited data

How the results depend on the processing

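Of the 2309 values under alternatives of single collagens that were called or named, 2255 kept their status as called or not called. Another 54 lost the call, and no call reversed. This count bears on calls, and no direction is claimed for values that were not called. The 17 lost line calls belonged to 10 genes, most often COL14A1 at 6 h (lost under 19 alternatives), COL6A2 at 6 h (7) and COL8A2 at 24 h (7). Alternatives added 12 line calls, of COL3A1, COL4A3, COL5A1, COL5A3, COL6A2, COL6A3, COL8A2 and COL9A3. Tests of only the probes well above background on all 24 arrays called 12 collagens between lines at 6 h and 11 at 24 h, since 18 could be tested. For the counts of calls in this paragraph no share of all probes called is at hand, except with the run as a block within each line. They describe the processing and are no result about the collagens. With each array left out in turn, line calls ran from 19 to 21 at 6 h and from 20 to 23 at 24 h, drug calls from 0 to 0, and time calls in H1975 from 0 to 1, with 1 call, COL9A3, without the second Pirfenidone replicate of A549 at 24 h or Pirfenidone replicate 3 of H1975 at 24 h. The slide as a random block and the run as a block within each line each called 1 collagen for the drug in H1975 at 6 h, 1 at 24 h and 1 for time in H1975. The run as a block shared by both lines, chosen after seeing the data, called 1 for the drug in H1975 at 6 h and 1 for time in H1975. The methods' paired t-test called 1 at 6 h and 1 at 24 h in H1975 before adjustment and 0 after Benjamini-Hochberg adjustment. The replicate block called 1 for time in H1975 and changed no other collagen count by more than 1.5 times. Without replicate 3 of both A549 arms at 24 h no count changed by more than 1.5 times. Signals near background limit the dim probes, and 3 arrays per group limit all.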
